A study of Mus musculus with 4 samples.

Results

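Unconventional myosins are actin-based motors that move or anchor cargo rather than contract muscle. The 9 described here are those of the hair cell (HC), the mechanosensory cell of the inner ear: *Myo7a*, *Myo6*, *Myo15*, *Myo3a*, *Myo3b*, *Myo1c*, *Myo10*, *Myo5a* and *Myo5b*. They were taken as the rows of the expression table whose gene symbol equals one of these names, and all 9 were found among its 12814 genes. This rule reads names and no signal, although the names were listed with earlier results of these data known.

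HCs detect sound and head movement with a bundle of stereocilia, stiff protrusions filled with actin. Myosins carry proteins to the tips of stereocilia, hold the bundle to the cell body and set the tension of the links between neighbouring stereocilia, and mutations in several of them cause deafness or loss of balance in mice and people.

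RNA was sequenced from sorted inner-ear cells of mice with the genotype *Atoh1/nGFP* (strain background C57BL/6) at postnatal day 1. All 4 populations carried the transgene, a nuclear green fluorescent protein that marks inner-ear HCs. HCs were the cells with both the fluorescent protein and CD326, an epithelial surface protein, and epithelial non-sensory cells (ENSCs) were those with CD326 alone, both taken from the hearing organ (cochlea) and from the balance organs (vestibular system). Inner ears of several mice were pooled for each preparation, and the table holds 1 column for each of the 4 populations, so no value has a replicate error and no p-value is given.

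The signal is a read count per gene that was quantile-normalized between libraries and has a floor of 20, so each column had the same total of 7830343 and the same median of 120. Read depth is therefore unknown. Close to the floor lies a range of signals in which genes could not be ranked, and it reached 24.25 in cochlear HCs, 22.75 in cochlear ENSCs, 30.5 in vestibular HCs and 20 in vestibular ENSCs. A ratio against a signal in such a range is given as a bound. All 10 HC markers listed were past 3-fold higher in HCs in both organs, as were 4.99% of all genes. The message of CD326 itself, *Epcam*, was lower in HCs (1017 against 3376 in the cochlea, 1139 against 7511 in the vestibular system). Of 10 supporting cell markers, 4 were past 3-fold lower in cochlear HCs (9.2% of all genes) and 3 in vestibular HCs (14.3% of all genes). In vestibular HCs 1 of them, *Sox2*, was past 3-fold higher (13.8% of all genes). The 4 mesenchyme markers in the table summed to 114 and 167 in the HC libraries and to 1743 and 1557 in the ENSC libraries (1618 of the cochlear sum from *Col1a2* alone), *Pou3f4* and *Twist1* were not among the genes of the table, the only melanocyte marker there (*Mitf*) was between 41.5 and 248, and none of 7 blood and endothelium markers was there. The 5 neuron and glia markers in the table summed to 5037 and 4756 in HCs and to 622 and 1304 in ENSCs, led in HCs by the neurofilaments *Nefl* and *Nefm*. The part of other cell types in the values below was not tested.

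In HCs of both organs 5 of the myosins stood far above their ENSC level, and the other 4 did not. *Myo7a*, *Myo6*, *Myo15*, *Myo3a* and *Myo3b* had HC signals 18.7 to 66.8 times those of ENSCs in the cochlea, and at least 17.1 times those of vestibular ENSCs. *Myo10*, *Myo5a* and *Myo5b* were within 3-fold in both organs. *Myo1c* was the reverse of the first group, lower in HCs than in ENSCs and past 3-fold in the vestibular system.

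*Myo7a* encodes the motor that sits near the upper end of the tip link and is lost in a form of Usher syndrome, the joint loss of hearing and sight. Its signal was 1330 in cochlear HCs, 27.5 in cochlear ENSCs, 1756 in vestibular HCs and 20 in vestibular ENSCs. The ENSC libraries were at or close to the floor and both HC libraries were far above it. The HC signal was 48.4-fold higher in the cochlea (log2 ratio 5.60) and at least 87.8-fold higher in the vestibular system (log2 ratio 6.46).

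*Myo6* encodes the only myosin known to walk toward the minus end of actin filaments, and it anchors the base of the stereocilia. Its signal was 29920 in cochlear HCs, 1604 in cochlear ENSCs, 21968 in vestibular HCs and 1287 in vestibular ENSCs. It was the only one of the 5 to stand well above the floor in ENSCs of both organs. The HC signal was 18.7-fold higher in the cochlea (log2 ratio 4.22) and 17.1-fold higher in the vestibular system (log2 ratio 4.09).

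*Myo15* (*Myo15a* in current naming) encodes the motor that brings whirlin and EPS8 to stereocilia tips and without which stereocilia stay short. Its signal was 689 in cochlear HCs, 26.8 in cochlear ENSCs, 1171 in vestibular HCs and 20 in vestibular ENSCs. The pattern followed that of *Myo7a* at a lower level. The HC signal was 25.7-fold higher in the cochlea (log2 ratio 4.69) and at least 58.6-fold higher in the vestibular system (log2 ratio 5.87).

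*Myo3a* and *Myo3b* encode a pair of related motors that carry a kinase domain and deliver espin proteins to stereocilia tips. The *Myo3a* signal was 4546 in cochlear HCs, 68 in cochlear ENSCs, 615 in vestibular HCs and 20 in vestibular ENSCs. The *Myo3b* signal was 2232 in cochlear HCs, 71.8 in cochlear ENSCs, 2879 in vestibular HCs and 20.3 in vestibular ENSCs. Both were higher in HCs of either organ. For *Myo3a* the HC signal was 66.8-fold higher in the cochlea (log2 ratio 6.06) and at least 30.7-fold higher in the vestibular system (log2 ratio 4.94). For *Myo3b* it was 31.1-fold higher in the cochlea (log2 ratio 4.96) and 142-fold higher in the vestibular system (log2 ratio 7.15). The latter divides by a signal just above the floor.

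**Figure D1:**
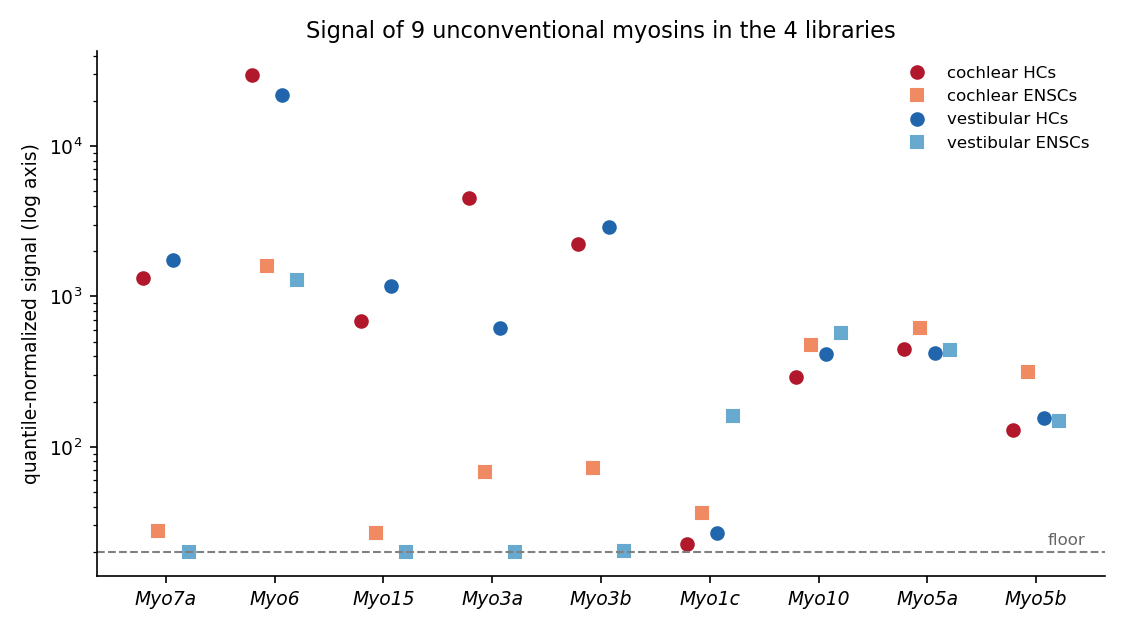
Quantile-normalized signal of the 9 myosins on a log axis, with 1 point for each library and the floor of 20 as a dashed line. For *Myo7a*, *Myo6*, *Myo15*, *Myo3a* and *Myo3b* both HC points (circles) lie far above both ENSC points (squares), whereas the highest point of *Myo1c* is that of vestibular ENSCs, at 159.

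*Myo1c* encodes a small membrane-binding motor that has been studied as a motor of adaptation in HCs. Its signal was 22.5 in cochlear HCs, 36.3 in cochlear ENSCs, 26.5 in vestibular HCs and 159 in vestibular ENSCs. Both HC signals lay in the range that could not be ranked, so HC expression was not detectable above the floor here. The HC signal was at least 1.49-fold lower than that of ENSCs in the cochlea and at least 5.22-fold lower in the vestibular system (log2 ratio -2.59). Of the 4 mesenchyme markers, 3 were also higher in vestibular than in cochlear ENSCs: *Col1a1* (512 against 58.3), *Col3a1* (547 against 46.3) and *Tbx18* (54.8 against 20). *Col1a2* was the reverse (443 against 1618). Of these markers 1 was past 3-fold lower in cochlear HCs (9.2% of all genes) and 3 were in vestibular HCs (14.3% of all genes). The part of these markers in the *Myo1c* values was not tested.

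*Myo10* encodes the motor that travels to the tips of filopodia. Its signal was 292 in cochlear HCs, 473 in cochlear ENSCs, 416 in vestibular HCs and 571 in vestibular ENSCs. The ENSC library was the higher of each pair, by less than 3-fold, and the log2 ratio was -0.70 for the cochlea and -0.46 for the vestibular system. With a correction for exonic length and GC content the vestibular one was 0.05.

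*Myo5a* and *Myo5b* encode carriers of vesicles and organelles, the second one known for recycling endosomes in epithelia. The *Myo5a* signal was 448 in cochlear HCs, 620 in cochlear ENSCs, 422 in vestibular HCs and 437 in vestibular ENSCs. The *Myo5b* signal was 129 in cochlear HCs, 313 in cochlear ENSCs, 156 in vestibular HCs and 148 in vestibular ENSCs. For both genes cochlear ENSCs were the highest library, and the other 3 lay close together. The log2 ratios of HCs to ENSCs were -0.47 and -0.05 for *Myo5a* and -1.27 and 0.07 for *Myo5b*, in the cochlea and the vestibular system.

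Counted together, 5 of the 9 myosins were past 3-fold higher in cochlear HCs, where 8.39% of all genes were, and none was past 3-fold lower, where 9.2% of all genes were. In the vestibular system 5 were higher, against 13.8% of all genes, and 1 was lower, against 14.3%. The same 5 were higher in both organs, which 4.99% of all genes were. The median log2 ratio of the 9 was 4.22 for the cochlea and 4.09 for the vestibular system, beside 0 and -0.00 for all genes. By log2 ratio *Myo3a* ranked 6 and *Myo7a* ranked 16 of 12814 genes in the cochlea, and *Myo3b* ranked 14 and *Myo7a* ranked 31 in the vestibular system. HC myosins are standard markers of these cells, and a bulk library does not separate fewer expressing cells from less RNA in each cell.

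Because the ratios of low signals depend on the floor, they were set again with floors of 50 and 100 and with added pseudocounts. The cochlear log2 ratio of *Myo15* was then as low as 2.64 and the vestibular one of *Myo3a* as low as 2.57. The vestibular one of *Myo3b* fell from 7.15 to as low as 4.63. All 5 stayed past 3-fold under every alternative run. The lower signal of *Myo1c* in vestibular HCs did not stay past 3-fold with a floor of 100 (log2 ratio -0.67) or a pseudocount of 100 (log2 ratio -1.04).

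**Figure D2:**
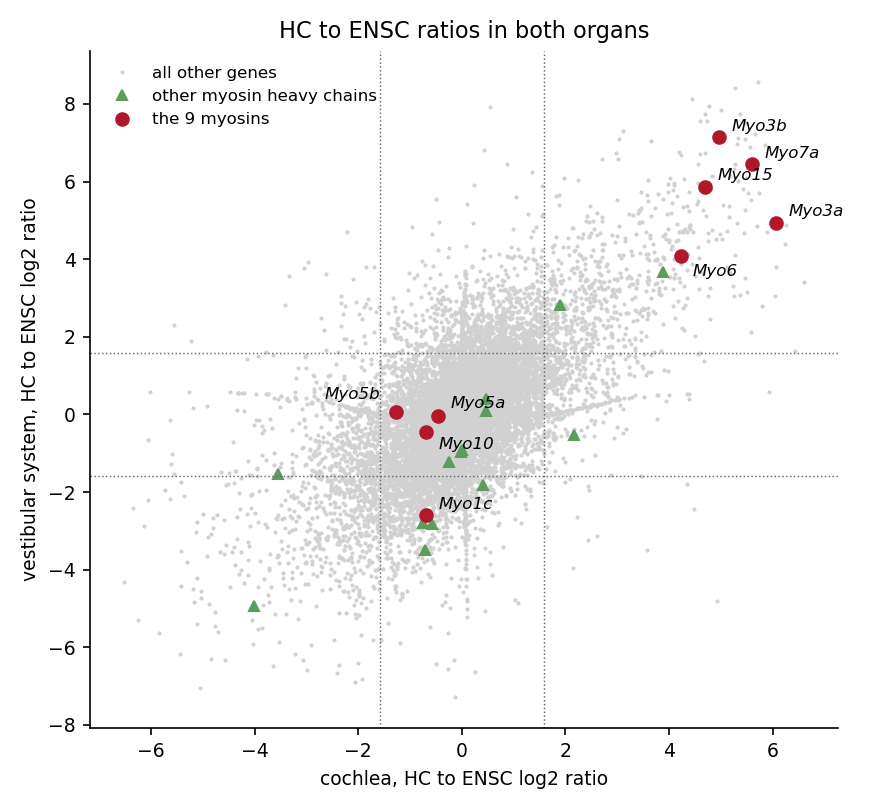
HC to ENSC log2 ratio in the cochlea (horizontal) against the vestibular system (vertical) for all genes of the table (grey), the 9 myosins (red circles) and 14 other myosin heavy chains (green triangles), with dotted lines at 3-fold. The 5 HC-high myosins lie at the upper right edge, *Myo3b* highest at 7.15 on the vertical axis and *Myo3a* farthest right at 6.06, while *Myo10*, *Myo5a* and *Myo5b* lie inside the dotted lines.

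The promoters of the 5 HC-high myosins are printed next, since these genes were past 3-fold higher in HCs of both organs. They are 300 nt long, from 250 nt before to 50 nt after the annotated start, as given by RefSeq for GRCm38.p6. A promoter was found for 8 of the 9 myosins, 12 promoters in all, and for *Myo7a* the first of 2 is shown. Capitals mark the E-box CAGCTG, a sequence of the kind that ATOH1 and other bHLH factors bind, and GTTNCC, one arm of the palindrome that RFX factors bind, on either strand (GGNAAC on the other). The promoters lie at chr7:98119444-98119743 on the minus strand (*Myo7a*), chr11:60469089-60469388 (*Myo15*), chr9:80164784-80165083 (*Myo6*), chr2:22227253-22227552 (*Myo3a*) and chr2:70038876-70039175 (*Myo3b*), the last 4 on the plus strand.
Myo7a: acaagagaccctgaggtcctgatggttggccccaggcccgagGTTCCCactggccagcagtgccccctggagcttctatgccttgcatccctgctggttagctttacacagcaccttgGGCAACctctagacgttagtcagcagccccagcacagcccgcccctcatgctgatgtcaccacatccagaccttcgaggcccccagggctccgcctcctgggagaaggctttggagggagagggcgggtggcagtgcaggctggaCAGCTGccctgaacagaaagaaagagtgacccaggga
Myo15: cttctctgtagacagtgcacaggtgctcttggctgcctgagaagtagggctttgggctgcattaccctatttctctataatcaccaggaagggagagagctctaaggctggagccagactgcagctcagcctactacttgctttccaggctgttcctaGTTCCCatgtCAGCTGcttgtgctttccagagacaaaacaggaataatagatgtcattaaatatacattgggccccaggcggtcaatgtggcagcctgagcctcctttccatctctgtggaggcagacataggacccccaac
Myo6: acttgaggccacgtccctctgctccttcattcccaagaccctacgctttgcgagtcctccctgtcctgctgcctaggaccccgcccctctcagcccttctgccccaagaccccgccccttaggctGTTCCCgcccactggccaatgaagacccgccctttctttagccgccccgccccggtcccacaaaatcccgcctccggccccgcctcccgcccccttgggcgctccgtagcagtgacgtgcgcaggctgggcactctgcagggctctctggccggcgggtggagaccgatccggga
Myo3a: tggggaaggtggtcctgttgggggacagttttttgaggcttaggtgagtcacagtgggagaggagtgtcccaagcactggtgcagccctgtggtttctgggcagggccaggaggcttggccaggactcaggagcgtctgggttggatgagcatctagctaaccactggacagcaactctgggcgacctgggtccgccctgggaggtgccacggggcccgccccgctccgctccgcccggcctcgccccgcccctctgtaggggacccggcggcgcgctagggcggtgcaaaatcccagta
Myo3b: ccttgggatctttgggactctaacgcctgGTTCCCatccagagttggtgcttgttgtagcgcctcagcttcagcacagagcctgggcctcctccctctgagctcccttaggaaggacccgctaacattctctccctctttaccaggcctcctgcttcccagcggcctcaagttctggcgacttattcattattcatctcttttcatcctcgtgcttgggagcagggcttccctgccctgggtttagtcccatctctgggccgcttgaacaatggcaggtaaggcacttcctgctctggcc

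CAGCTG was present in 4 of the 12 promoters, both of *Myo7a* (at +14 and +43 from the start), that of *Myo15* (at -82) and 1 of *Myo1c* (at +16), and in 16.3% of all 32851 mouse promoters of the same length. In the *Myo15* promoter the E-box followed closely on a GTTNCC match at -92. GTTNCC was present in 6 of the 12 and in 45.3% of all promoters. The 6 were both of *Myo7a*, those of *Myo15*, *Myo6* and *Myo3b*, and 1 of *Myo1c* (at -84). The full RFX palindrome, GTTNCC and GGNAAC with 0 to 3 bases between them, was in none of the 12 and in 0.804% of all. A second E-box, CAGATG, was in 1 promoter of *Myo1c*, at -116, and in 17.2% of all. In no promoter of *Myo3a*, *Myo10* or *Myo5a* was any of these letter runs found, which says only that they are not in these windows.

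The promoters also differed in CpG content, a feature that separates broadly used promoters from more restricted ones. All mouse promoters had a median of 7 CpG, with quartiles of 3 and 20. *Myo15* had 1, both promoters of *Myo7a* had 6 and *Myo3b* had 7, while *Myo3a* had 16, *Myo6* had 22 and *Myo5a* had 36. The 5 HC-high myosins thus covered the range from few to many CpG.

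Levels were compared between genes after division by exonic length, as signal per kb. They were not corrected for GC content, whose part in the orders and shares per kb was not tested. *Myo6* was first of the 9 in every library, at 3187 per kb in cochlear HCs and 2340 per kb in vestibular HCs, above 99.8% and 99.4% of all genes. It was also first in ENSCs, at 171 per kb (cochlea) and 137 per kb (vestibular system), above 83.3% and 80.1% of all genes. The median of all genes was between 36.1 and 37.3 per kb.

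Below *Myo6* the order differed between the organs. In cochlear HCs *Myo3a* followed at 572 per kb, *Myo3b* at 315, *Myo7a* at 156 and *Myo15* at 54.0. In vestibular HCs *Myo3b* followed at 406 per kb, *Myo7a* at 206, *Myo15* at 91.8 and *Myo3a* at 77.4. These 5 took the first 5 places in both HC libraries, and the other 4 lay near or below the median of all genes, down to *Myo1c* at 3.08 and 3.63 per kb. In ENSCs *Myo10* was second, at 46.8 per kb (cochlea) and 56.4 per kb (vestibular system), followed by *Myo5a*. With 1 library per population, these orders have no replicate spread to be read against, and *Myo15* and *Myo3a* changed places in vestibular HCs when the longest transcript stood in for exonic length.

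**Figure D3:**
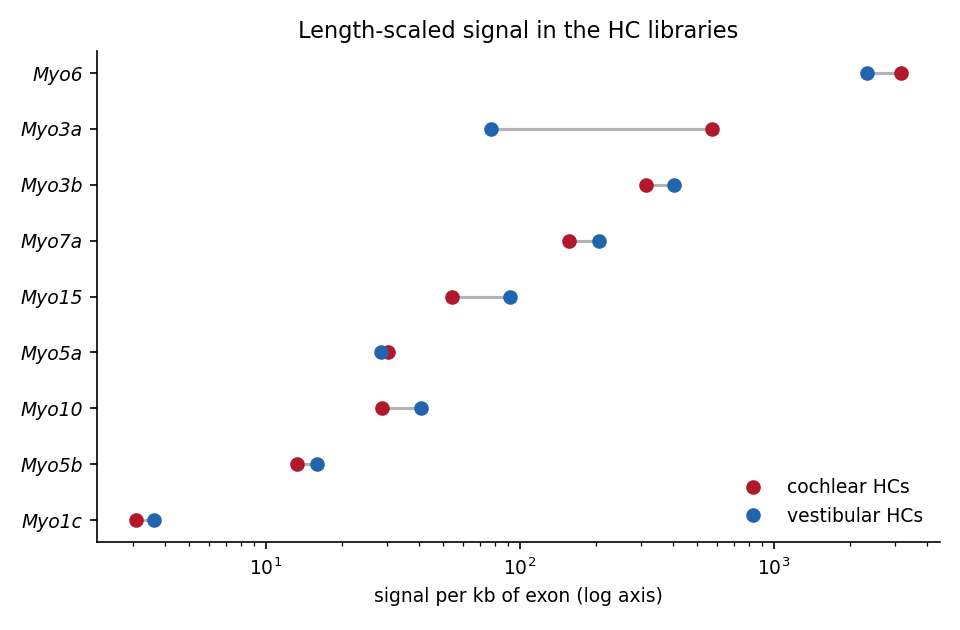
Signal per kb of exon (log axis) of the 9 myosins in the HC libraries, red for the cochlea and blue for the vestibular system, ordered by the cochlear level. The points of *Myo3a* lie far apart, at 572 and 77.4 per kb, and those of the other 8 lie close together.

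Between HCs of the 2 organs, *Myo3a* was the only one of the 9 past 3-fold, where 4.21% of all genes were higher in cochlear HCs and 5.09% lower. Its signal was 4546 in cochlear and 615 in vestibular HCs, 7.40-fold higher in the cochlea (log2 ratio 2.89), and it ranked 74 of 12814 genes for this ratio. Its partner *Myo3b* had a log2 ratio of -0.37, so the cochlear signal was the lower of the pair. Per kb, *Myo3a* stood 1.82 times above *Myo3b* in cochlear HCs, and *Myo3b* stood 5.25 times above *Myo3a* in vestibular HCs. The *Myo3a* log2 ratio lay between 2.70 and 2.89 over the alternatives run.

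The other HC-high myosins were close to even between the organs. *Myo6* was slightly higher in cochlear HCs (log2 ratio 0.45), and *Myo7a* (-0.40) and *Myo15* (-0.77) were lower there. *Myo1c*, *Myo10*, *Myo5a* and *Myo5b* had log2 ratios of -0.24, -0.51, 0.09 and -0.27. Per kb, *Myo6* exceeded *Myo7a* 20.4 times in cochlear HCs and 11.4 times in vestibular HCs, and *Myo7a* exceeded *Myo15* 2.89 and 2.25 times.

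Between the ENSC libraries, 2 of the 9 were past 3-fold higher in the cochlea, where 7.8% of all genes were, and 1 was past 3-fold lower, where 7.94% were. The higher ones were *Myo3a* (68 against 20, at least 3.4-fold) and *Myo3b* (71.8 against 20.3, 3.54-fold). The lower one was *Myo1c* (36.3 against 159, 4.39-fold lower, log2 ratio -2.14). All of these rest on signals close to the floor. With a floor of 50 the log2 ratios of *Myo3a* and *Myo3b* were 0.44 and 0.52, and with a correction for exonic length and GC content that of *Myo1c* was -1.46, short of 3-fold.

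The ENSC signals of the HC-high myosins were also read as a percent of the HC signal of the same organ. In the cochlea these were 2.07% for *Myo7a*, 5.36% for *Myo6*, 3.89% for *Myo15*, 1.5% for *Myo3a* and 3.21% for *Myo3b*. In the vestibular system they were 1.14%, 5.86%, 1.71%, 3.25% and 0.703% in the same order. *Myo6* was the highest of the 5 in either organ. For the 10 HC markers the percents ran from 2.19 to 25.2 (median 4.64) for the cochlea and from 0.532 to 18.6 for the vestibular system (median 2.94), so the 5 myosins lay within or just below that range. Many of these ENSC signals are at the floor, which makes their percent an upper limit. Whether they came from HCs in the ENSC sort or from ENSCs themselves was not tested.

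The difference between the organs' HC to ENSC log2 ratios, vestibular minus cochlear, was past 3-fold for 2 of the 9. *Myo3b* had the larger ratio in the vestibular system by 2.19 on the log2 scale, as 10.9% of all genes did past 3-fold, and *Myo1c* the lower one by -1.90, as 10.5% did. *Myo6* had a difference of -0.13. For *Myo15*, *Myo3a* and *Myo7a* the vestibular ratio is a lower bound, so their differences from the deposited signal, 1.19, -1.12 and 0.86, are lower limits. With the length and GC correction the differences of *Myo15* (2.17), *Myo3b* (2.11), *Myo7a* (1.77) and *Myo5b* (1.66) were past 3-fold. That of *Myo3a* was -1.64, but as a lower limit this negative value does not show a smaller vestibular ratio. Both ratios of *Myo1c* are bounds, and its difference with that correction was -1.02, short of 3-fold. These differences carry the ENSC signals near the floor, and which genes passed changed with its treatment. With a floor of 50, which raised the vestibular ENSC signals of both, that of *Myo3b* was 0.89 and that of *Myo3a* was -2.44. Both are lower limits.

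The 9 myosins were next placed among all myosin heavy chains in the table. The table held 10 of 15 other unconventional myosins and 4 of 14 conventional heavy chains, which with the 9 made 23. Summed per kb, these came to 4804 in cochlear HCs and 3556 in vestibular HCs, and to 854 and 952 in the ENSCs. The 9 made up 90.7% of the sum in cochlear HCs and 90.3% in vestibular HCs, against 37.5% and 28.3% in ENSCs. *Myo6* alone gave 66.3% and 65.8% in HCs, and 20% and 14.4% in ENSCs. Without *Myo6*, the other 4 HC-high myosins gave 22.8% and 22.0% in HCs, and 2.81% and 0.975% in ENSCs. *Myo3a* held 11.9% in cochlear and 2.18% in vestibular HCs, and *Myo3b* held 6.55% and 11.4%, so the larger share of the pair belonged to *Myo3a* in the cochlea and to *Myo3b* in the vestibular organs.

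**Figure D4:**
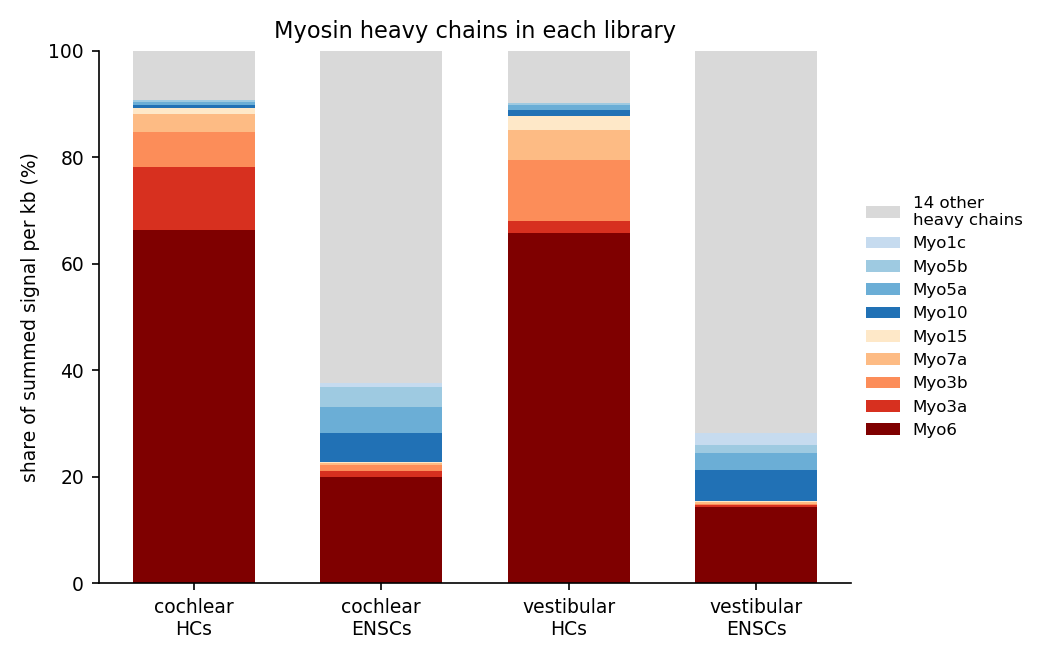
Share of each myosin in the summed signal per kb of 23 heavy chains, 1 bar per library, with *Myo6* at the bottom and 14 other heavy chains in grey at the top. The 9 myosins fill 90.7% and 90.3% of the HC bars and 37.5% and 28.3% of the ENSC bars, and the *Myo3a* band is wide only in cochlear HCs.

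The counts of all lists that follow stand beside the shares of all genes past 3-fold, which were 8.39% higher and 9.2% lower in cochlear HCs, and 13.8% higher and 14.3% lower in vestibular HCs. Of the 10 other unconventional myosins, 3 were past 3-fold higher and 2 lower in cochlear HCs, and 2 were higher and 3 lower in vestibular HCs (median log2 ratios 0.44 and -0.88). *Myo16* had the HC-high pattern, with signals of 327 against 22.3 in the cochlea and 254 against 20 in the vestibular system, at least 14.4-fold and at least 12.7-fold higher in HCs. *Myo5c*, the epithelial relative of *Myo5a* and *Myo5b*, was the opposite, with 24.3 and 29.8 in HCs and 390 and 907 in ENSCs, at least 16.1-fold and at least 29.7-fold lower in HCs. *Myo1d* was lower in vestibular HCs (40.3 against 281, log2 ratio -2.80). Of the 4 conventional heavy chains none was past 3-fold in the cochlea (median -0.29), and 2 were lower in vestibular HCs (median -1.89): *Myh9* (114 against 807, log2 ratio -2.83) and *Myh14* (28.3 against 320, at least 10.5-fold lower), which encode nonmuscle myosins of the cell cortex. The summed mesenchyme markers were likewise higher in the ENSC libraries (1557 against 167 in the vestibular system), and their part in these values was not tested.

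Unconventional myosins bind calmodulin or light chains along their lever arm. The table held 9 of 16 such genes, of which 1 was past 3-fold higher and 1 lower in cochlear HCs, near the 8.39% and 9.2% of all genes, and 2 were higher and 3 lower in vestibular HCs, against 13.8% and 14.3% (median log2 ratios 0.29 and -0.82). *Calml4*, a calmodulin-like gene, was past 3-fold in the vestibular system only (log2 ratios 1.42 and 2.94). *Myl9* (0.29 and -3.18) and *Myl12a* (-1.74 and -1.67), light chains of the conventional nonmuscle myosins, were lower in vestibular HCs, the latter in cochlear HCs too.

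Of 8 genes for proteins that bind MYO7A or work in the same bundle links, 7 were in the table, and 6 were past 3-fold higher in cochlear HCs (8.39% of all genes) and 5 in vestibular HCs (13.8% of all genes), none lower (median log2 ratios 2.61 and 3.24). *Gpr98*, a receptor of the ankle links of the bundle, had log2 ratios of 5.23 and 3.32, *Cib2*, a calcium-binding protein needed for mechanotransduction, had 4.57 and 3.24, and *Pcdh15*, the lower part of the tip link, had 2.22 and 4.35. Most of these are known HC genes, and they were not compared with other HC genes.

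Of 4 MYO15 partners 3 were in the table, and only *Gpsm2*, which encodes a polarity protein, passed 3-fold, in vestibular HCs (log2 ratios 1.32 and 2.62). All 3 MYO3 partners were in the table, and 2 were past 3-fold higher in HCs of both organs (medians 2.87 and 2.50). *Espnl*, an espin-like cargo, had signals of 1201 and 1376 in HCs and 26.8 and 20 in ENSCs, a log2 ratio of 5.49 in the cochlea and at least 68.8-fold higher in the vestibular system.

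Of 12 MYO6 partners 10 were in the table, with 2 higher and 1 lower in cochlear HCs (8.39% and 9.2% of all genes) and 3 higher and 1 lower in vestibular HCs (13.8% and 14.3% of all genes; medians -0.17 and -0.14). *Ptprq*, a phosphatase of the stereocilia base, had signals of 16851 and 23927 in HCs and 692 and 127 in ENSCs (4.61 and 7.56). *Otof*, which encodes the calcium sensor of the HC ribbon synapse, had log2 ratios of 4.72 and 7.55. *Dab2*, an adaptor of endocytosis, had signals of 24.3 against 313 in the cochlea, at least 12.9-fold lower in HCs, and a vestibular log2 ratio of -4.44. *Clic5*, a protein of the stereocilia base, was higher in vestibular HCs only (-0.62 and 3.52).

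All 6 MYO10 partners were in the table, none higher in HCs, 1 lower in cochlear and 3 lower in vestibular HCs (medians -0.90 and -1.92). *Itgb1*, the integrin that MYO10 carries, had log2 ratios of -2.07 and -2.52, and *Neo1*, a netrin receptor, had -1.44 and -2.32. Of 10 MYO5 partners 9 were in the table, with 1 higher in cochlear HCs, 2 in vestibular HCs and none lower (medians -0.51 and -0.31). *Rab3a*, a GTPase of synaptic vesicles, had 3.07 and 3.54, and *Rab11a*, a GTPase of recycling endosomes, had 0.30 and 1.72. Of 5 genes for myosin folding and actin 4 were in the table, of which 1 was higher in cochlear HCs and none past 3-fold in the vestibular system (medians 0.91 and -0.37), the one being the chaperone *Hsp90aa1* (1.84 and 0.81).

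**Figure D5:**
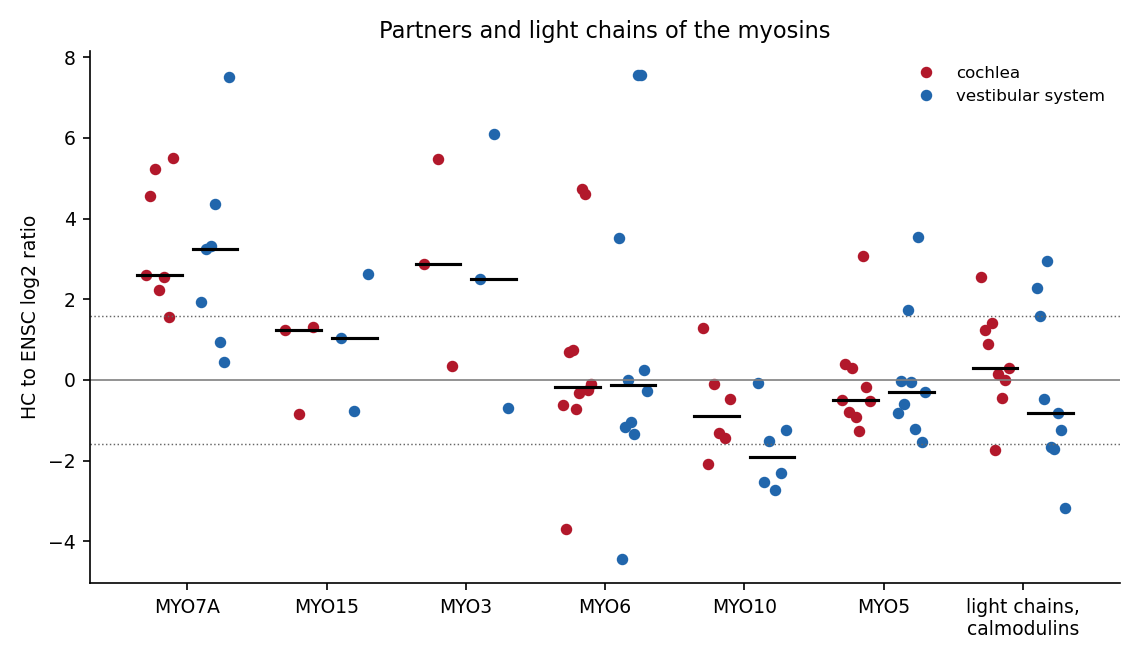
HC to ENSC log2 ratio of each gene in the partner lists and in the list of light chains and calmodulins, red for the cochlea and blue for the vestibular system, with black bars at the medians and dotted lines at 3-fold. Points of the MYO7A partners lie above 0 in both organs, with medians of 2.61 and 3.24, and those of the MYO10 partners lie mostly below, with medians of -0.90 and -1.92.

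For each of the 9 the pair of protein-coding genes with the nearest profile was found, by the root mean square difference of log2 signals over the 4 libraries after centring, among 6726 genes (6727 for *Myo1c*) whose highest signal reached 200 or more. With only 4 points many genes lie close to a given profile, so this is a description. Nearest to *Myo7a* were *Espnl* (0.136) and *Kncn* (0.150), to *Myo6* were *Syt2* (0.053) and *Slc12a5* (0.074), and to *Myo15* were *Unc80* (0.107) and *Gfi1* (0.120). Nearest to *Myo3b* were *Pou4f3* (0.149) and *Nefm* (0.201). *Myo3a* had no gene as close, its nearest being *St8sia3* (0.387) and *Slc7a14* (0.431). The other 4 had neighbours within 0.067: *Nucb1* and *Dcakd* for *Myo1c*, *Armc10* and *Mtmr10* for *Myo10*, *Arf6* and *Lnpep* for *Myo5a*, and *Nt5dc1* and *Fam18b* for *Myo5b*. Among the 9 themselves the nearest were *Myo5a* and *Myo5b* (0.294), then *Myo10* and *Myo5a* (0.380), then *Myo15* and *Myo7a* (0.396), while *Myo3a* and *Myo3b* differed by 1.18.

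The genes lie on 6 chromosomes of mm9, the build of the table, with positions here from the matching GENCODE annotation of NCBIM37. *Myo3a* (ENSMUSG00000025716) lies at chr2:22149130-22473772 and *Myo3b* (ENSMUSG00000042064) at chr2:69877183-70267255. *Myo15* (ENSMUSG00000042678) lies at chr11:60282841-60341871 and *Myo1c* (ENSMUSG00000017774) at chr11:75464006-75488134. *Myo6* (ENSMUSG00000033577) lies at chr9:80012838-80159536 and *Myo5a* (ENSMUSG00000034593) at chr9:74918822-75071495. *Myo7a* (ENSMUSG00000030761) lies at chr7:105199570-105268034 on the minus strand, *Myo10* (ENSMUSG00000022272) at chr15:25552280-25743428 and *Myo5b* (ENSMUSG00000025885) at chr18:74600590-74931147, so that all but *Myo7a* are on the plus strand.

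Their exonic lengths ran from 7093 nt for *Myo3b* to 14803 nt for *Myo5a*, and exonic GC content from 41.3% for *Myo3a* to 56.6% for *Myo15*. *Myo3a* and *Myo3b* are alike in length (7943 and 7093 nt) and in GC content (41.3% and 46.6%), and after correction for both features *Myo3a* stayed past 3-fold between the HC libraries. With that correction the vestibular HC to ENSC log2 ratios of the GC-rich *Myo7a* and *Myo15* became 7.34 and 6.76, and that of *Myo3a* became 4.27.

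Reads of these genes are largely their own. No stretch of 50 nt, the read length aligned, was shared with protein-coding transcripts of other genes for 8 of the 9, and 9 of 11918 stretches were shared for *Myo5a*. *Myo3b* shares 70 exonic nt with *Gm13631*, a gene on the same strand whose own signal was 40.8 in cochlear HCs and 20 in the other 3 libraries.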

How the data were processed

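The labels give polyA RNA as the molecule, and per the methods total RNA of the sorted cells was amplified with the NuGEN Ovation system. The labels and the methods name different RNA extraction kits. Per the methods, the authors took 50 nt from the start of each read, mapped them on mm9 (TopHat), counted them over ENSEMBL genes (HTSeq), kept genes with at least 20 reads, quantile-normalized the columns and set a floor of 20. Versions and the strand setting are not given in the sources used here. The deposited values are therefore a signal per gene, not counts and not scaled to length. Triplicates are mentioned in the design text, whereas the table has 1 column per population.

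Log2 ratios were computed from the signal with no pseudocount, and 3-fold either way was counted. Tied ranges near the floor were found from the rank of low signals against the other libraries. A bound was computed against the top of such a range. Signal per kb used the union of exons. Genes named beyond the 9 are those of each list past 3-fold in either organ whose higher library reached a signal of 200, at most 4 a list by size of log2 ratio, and the 2 nearest profiles of each myosin. *Myo18a*, others in the closing section and the single marker genes were chosen with their values in view. The members and the lists were chosen with earlier results of these data known. Alternatives were floors of 50 and 100, pseudocounts of 20 and 100, thresholds of 2 and 5, a filter at 100, centring on the median, tied ranges raised to their top, and a correction for exonic length and GC content by local regression (0.3 of the genes, 2 iterations). Protein sequences were not analysed here. Some genes that the naming rule selects are not reported here. Python 3.11.15, pandas 2.3.3, numpy 2.4.6 and statsmodels 0.14.6 were used. The calls were tested on simulated data whose changed genes all lay well above the floor, so that test does not cover ratios near it.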

Additional observations from a re-analysis of the deposited data

Results flagged for a closer look

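Some genes had HC to ENSC log2 ratios of opposite sign in the 2 organs. With 1 library per population the difference was not tested for any of them. Among the 9 myosins this held for *Myo5b*, with -1.27 (cochlea) and 0.07 (vestibular system), a difference of 1.35 as vestibular minus cochlear, neither past 3-fold. Among other myosins, *Myo9b* had 0.41 and -1.81 (difference -2.22), and *Myo18a* had 2.17 and -0.53 (difference -2.70), from signals of 140 in cochlear HCs, 31 in cochlear ENSCs, 91.3 in vestibular HCs and 132 in vestibular ENSCs. The light chain gene *Myl9* had 0.29 and -3.18 (difference -3.47). *Clic5*, whose product is a partner of MYO6 at the stereocilia base, had -0.62 and 3.52 (difference 4.14), with signals of 1203 and 1545 in HCs and 1847 and 135 in ENSCs. The supporting cell marker *Tectb*, a gene of the tectorial membrane, had -2.74 and 0.69 (difference 3.43).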

How the results depend on the processing

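With 1 library per population there is no replicate error, and depth is unknown, so the floor sets what can be seen: HC levels of *Myo1c* and most ENSC levels of the HC-high myosins lie at or near it. No paired analysis was possible because each population has 1 library and no ratio comes from a test. The 5 HC-high myosins in each organ, and *Myo3a* between the HC libraries, stayed past 3-fold under every alternative run, and no log2 ratio that was itself past 3-fold changed sign.

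The count of myosins past 3-fold between ENSCs of the organs (3) was 1 with a floor of 50, a pseudocount of 20 or the length and GC correction, and 0 with a floor of 100, a pseudocount of 100 or a threshold of 5. The count of organ differences (2) was 1 with a floor of 100 or pseudocounts of 20 and 100, each time *Myo3a*, 0 with a threshold of 5, and 5 with a threshold of 2 or the length and GC correction. With a floor of 50 that count was again 2, but of *Myo3a* and *Myo1c*, both with a negative difference. The vestibular ratio of *Myo3a* is a lower bound, so none of its counted differences shows a smaller vestibular ratio. The length and GC correction also moved the share of higher genes among all vestibular calls from 49.0% to 59.5%. With Pearson correlation in place of the root mean square difference, 2 of the 18 nearest genes were kept.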

Other observations

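*Myo3a* holds other genes in its introns. *Gm13341*, *Gm13340* and *Gm13339* are pseudogenes on the opposite strand that share 0 exonic nt with it. *Gm13339* had a signal of 175 in cochlear HCs, 21.5 in cochlear ENSCs, 26.5 in vestibular HCs and 20 in vestibular ENSCs. *Gm13341* had 126, 24.8, 24 and 20 in the same libraries, and *Gm13340* had 139, 76.3, 46.8 and 23.3. For all 3 cochlear HCs were the highest library, as for *Myo3a* itself. Since the strand setting of the counts is not given in the sources used here, reads from *Myo3a* introns and from these genes cannot be told apart.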
